A study of Mus musculus with 8 samples.

Results

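The NF-kappaB genes described here are 10 of the 55414 genes in the deposited count table: the inhibitors and feedback regulators Nfkbia, Nfkbie, Nfkbiz and Tnfaip3, the transcription factor subunits Rela, Rel, Nfkb1 and Nfkb2, and the adhesion targets Vcam1 and Icam1. They were found by gene symbol, and each symbol matched 1 gene. The members were chosen by a rule of symbols that was written with the measured log2 fold changes between the genotypes in these same libraries known, so their differences are given as a description, with no test. The libraries came from cells sorted as enteric neurons (the nerve cells that lie in the gut wall) from the colon of mice aged 4 weeks. Of the 8 libraries, 4 carry the genotype WT and 4 the knockdown of Emb (Emb-kd), the gene of embigin, a membrane glycoprotein. Cells were stained for CD24 and CD56, sorted into tubes of about 250 cells and amplified with a Smart-seq kit, and by its title the study asked how the knockdown affects the development of these neurons. How Emb was knocked down, in which cells, and whether each tube held the cells of 1 mouse were not given in the sources used here, so p-values measure only the spread between these libraries, which may be technical.

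NF-kappaB transcription factors are dimers of Rel-family subunits that inhibitor proteins hold in the cytoplasm. Signals from cytokine and Toll-like receptors activate a kinase complex that marks the inhibitors for destruction, and the freed dimers enter the nucleus. Among the genes they switch on are their own inhibitors, which close a feedback loop, and adhesion molecules that bind leukocyte integrins. In the gut wall, macrophages, endothelium and glia are known to use the pathway.

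The genotypes differed as whole libraries. WT libraries held 698930 to 954191 counts and Emb-kd libraries 2024372 to 2712754, and ribosomal RNA genes took 3.55% to 13% of them in WT and 29.2% to 42.5% in Emb-kd. Levels below are CPM, counts scaled to a common library total, here after TMM normalisation over the 11353 genes that passed a filter on low counts. Emb itself had 4, 6, 22 and 16 counts in the WT libraries 1 to 4 and 5, 25, 3 and 5 in the Emb-kd libraries, a log2 fold change of -1.24 ± 0.82 (SE, edgeR adjusted p = 0.529); 3 of the 4 Emb-kd libraries lay below all WT libraries and 1 did not. The summed level of 15 neuron markers overlapped between genotypes (451 to 762 CPM in WT, 399.7 to 643 in Emb-kd). The 2 most abundant of them did not overlap: Syt1, a synaptic vesicle gene, held 174 to 333 CPM in WT and 109 to 150.2 in Emb-kd, and Elavl3, a neuronal RNA-binding protein gene, 151 to 269.8 and 75.1 to 117, both lower in Emb-kd with no overlap. The top of the Emb-kd sums came from Uchl1, with 326 CPM in Emb-kd library 1 and 2.81 to 29.9 in WT. Snap25, a core synaptic gene that like Uchl1 was picked out after its values were seen, lay at 0.115 to 1.46 times the background of receptor genes in WT and 0.0873 to 0.969 times in Emb-kd. That background is the count per exonic kilobase over 1505 olfactory, vomeronasal and trace amine receptor genes of the same library, genes that colon cells are not known to use broadly. On that scale the genotypes overlapped for Syt1 (14.2 to 23.5 times in WT, 13.8 to 16.9 in Emb-kd) and for Elavl3 (14.9 to 26.1 and 8.85 to 16.9 times). The 14 macrophage and dendritic cell markers summed to 1707 to 4116 CPM in WT and to 4386 to 7052 CPM in Emb-kd, with no overlap, and this separation came from 1 gene. That gene was C1qa, a complement gene of macrophages, which held 510.4 to 2327 CPM in WT and 2812 to 5233 in Emb-kd; the other 13 markers summed to 1137 to 1788 and 693 to 1819 CPM, which overlapped. Cx3cr1, a macrophage chemokine receptor, went the opposite way to C1qa with 894 to 1539 and 7.02 to 682 CPM. The tubes were bulk samples, in which fewer cells of a type and less RNA per cell cannot be told apart.

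The promoters are shown because members of opposite direction carry the same kind of motif. RefSeq's promoter table for GRCm38.p6, which gives 250 bases before to 50 after each transcription start, held 10 promoters of 7 members. Nfkbiz, Nfkb1 and Vcam1 had no entry. The kappaB consensus, the motif that NF-kappaB dimers bind, was searched on both strands together with the TATA box TATAAA, the GC box GGGCGG and the AP-1 site TGANTCA. At least 1 kappaB match lay in the promoters of 5 of these 7 members, Nfkbia, Nfkbie, Tnfaip3, Rel and Nfkb2, against 5.14% of the 27025 genes in the table and 23 of 86 other genes of the pathway. The promoters of Nfkbia (minus strand, chr12:55492598-55492897) and of the upstream start of Tnfaip3 (minus strand, chr10:19015361-19015660) are written from 5′ to 3′ on the gene's strand, with kappaB matches in capitals:
Nfkbia: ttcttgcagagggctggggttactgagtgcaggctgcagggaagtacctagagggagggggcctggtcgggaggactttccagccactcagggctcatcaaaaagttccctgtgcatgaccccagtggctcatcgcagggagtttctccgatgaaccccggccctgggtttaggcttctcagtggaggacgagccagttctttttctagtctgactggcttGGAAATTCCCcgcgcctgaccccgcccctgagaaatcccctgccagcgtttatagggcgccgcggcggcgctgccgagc
Tnfaip3: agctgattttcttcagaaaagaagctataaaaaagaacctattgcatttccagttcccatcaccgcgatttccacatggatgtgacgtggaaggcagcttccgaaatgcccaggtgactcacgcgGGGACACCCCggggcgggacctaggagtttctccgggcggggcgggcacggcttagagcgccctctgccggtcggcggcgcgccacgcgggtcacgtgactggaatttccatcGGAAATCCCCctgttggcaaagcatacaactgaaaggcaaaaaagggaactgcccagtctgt
The match in Nfkbia lay 29 to 20 bases before the start. Those in Tnfaip3 lay 125 to 116 and 12 to 3 bases before it.

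Shorter stretches show the kappaB matches of Nfkbie (plus strand, chr17:45555585-45555612), Rel (minus strand, chr11:23771042-23771070) and the first start of Nfkb2 (plus strand, chr19:46304689-46304717 and chr19:46304717-46304744), the members whose promoters carried the motif beside those above:
Nfkbie: cagcaaacaGGGGGATTCCggaggggcg
Rel: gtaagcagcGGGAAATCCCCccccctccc
Nfkb2 upstream match: gatcgtcacGGGAATTCCCCccctcgggg
Nfkb2 downstream match: gggccgaaaGGGGCTTTCCcggctggag
The capitals in Rel and in the upstream match of Nfkb2 span 11 bases, because matches on opposite strands lay 1 base apart there. All 3 starts of Nfkb2 had a kappaB match within their windows, and the other start of Tnfaip3 had none of the motifs. A GC box lay in promoters of 7 of the 7 members, against 38.2% of all genes in the table, an AP-1 site in 3 of 7 against 8.97%, and a TATA box in 3 of 7 against 15.7%. A match is a description of the letters and does not show that a factor was bound.

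**Figure D1:**
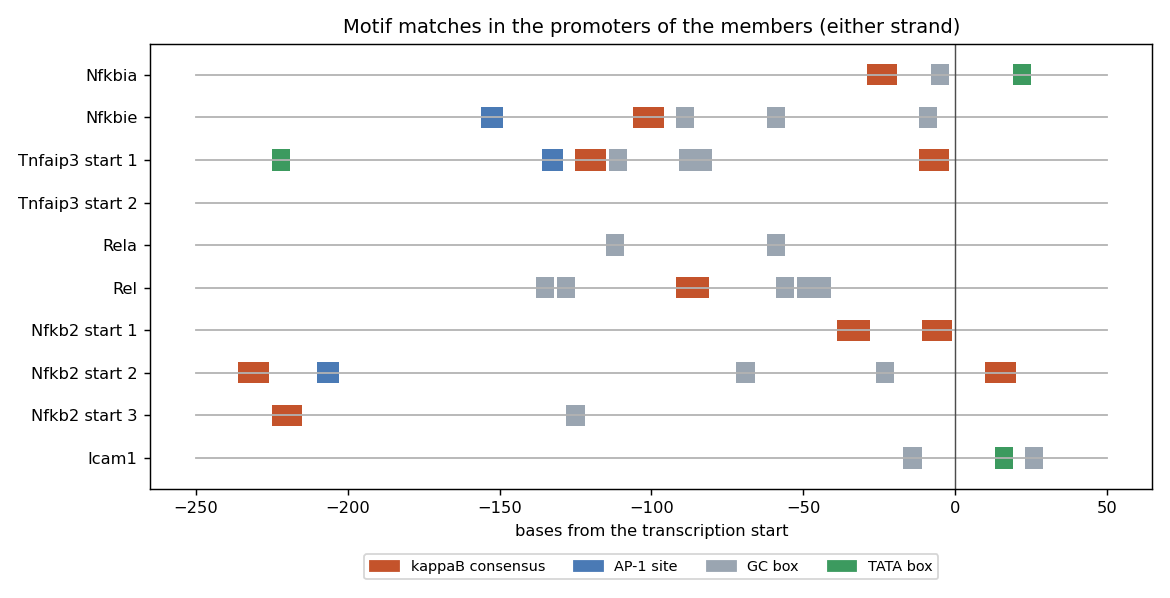
Motif matches on either strand in the 10 RefSeq promoters of 7 members; the x axis gives bases from the transcription start (vertical line) and each grey line is 1 promoter window. Red blocks mark the kappaB consensus, present in 7 of the 10 windows, and grey, blue and green blocks mark GC boxes, AP-1 sites and TATA boxes.

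Of the 10 members, 8 passed the filter on low counts, 7 with a higher estimate in Emb-kd and 1 with a lower one; over all genes tested 51.6% had a higher and 48.4% a lower estimate. The groups did not overlap for Vcam1, higher in Emb-kd, and for Tnfaip3, lower, and overlapped for the other 8 members. Of all genes tested, 4.03% did not overlap with Emb-kd higher and 4.25% with Emb-kd lower, 8.28% in all. The median log2 fold change of the 8 tested members was 1.34, against 0.04 over all genes tested. These counts come from the contrast that chose the members. Nfkbie was tested because of its Emb-kd libraries: all 4 of them, but only 2 WT libraries, reached the filter's level. Tnfaip3 and Icam1 reached it in 4 WT and 3 Emb-kd libraries.

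**Figure D2:**
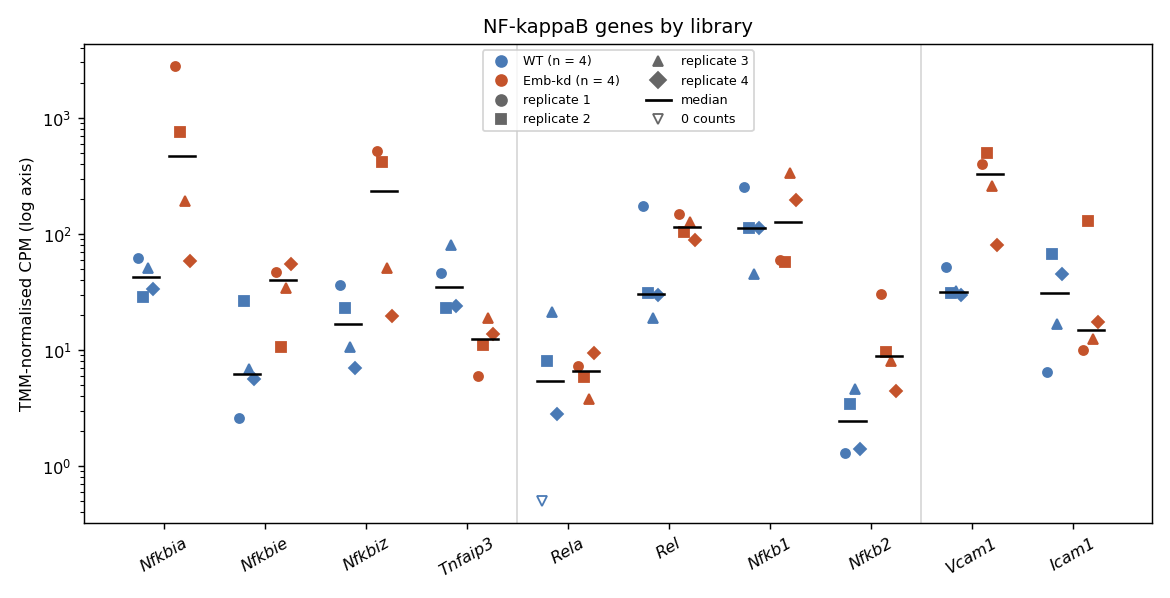
TMM-normalised CPM (log axis) of the 10 members in each of the 4 WT (blue) and 4 Emb-kd (red) libraries; the marker shape gives the replicate and the bar the median of a group. Emb-kd lies above every WT library for Vcam1 and below every WT library for Tnfaip3, and the groups overlap for the other 8 genes.

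Nfkbia (ENSMUSG00000021025, chr12:55489410-55492647, minus strand) encodes IkappaB alpha, the inhibitor that NF-kappaB induces fastest to shut itself off. Its level was 61.8, 28.7, 51.0 and 33.7 CPM in the WT libraries 1 to 4 and 2811, 753, 192 and 58.3 CPM in the Emb-kd libraries 1 to 4. The Emb-kd libraries were spread widely and 3 of them lay above all WT libraries, while library 4 fell within the WT range. The means were 43.8 ± 15.3 and 953 ± 1274 CPM (SD, n = 4 each), and the log2 fold change was 4.44 (SE 1.16, 95% interval from 1.89 to 6.99). Without Emb-kd library 1 the estimate was 2.94. The counts behind it were 164 over the WT libraries and 6087 over the Emb-kd libraries. Relative to the receptor background Nfkbia stood at 12.1 to 22.6 times in WT and 34.2 to 2073 times in Emb-kd, and on that scale the groups did not overlap.

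Nfkbiz (ENSMUSG00000035356, chr16:55811375-55838899, minus strand) encodes a nuclear member of the inhibitor family that helps switch on a subset of NF-kappaB targets. It held 36.0, 23.0, 10.7 and 7.03 CPM in the WT libraries and 515, 419, 50.8 and 19.4 CPM in the Emb-kd libraries. The Emb-kd libraries took the same order as for Nfkbia, with libraries 1 and 2 high and library 4 within the WT range. The means were 19.2 ± 13.1 and 251 ± 253 CPM (SD, n = 4 each) and the log2 fold change was 3.71 (SE 1.12, 95% interval from 1.26 to 6.15), which became 3.11 without Emb-kd library 1 and 4.29 without WT library 1.

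Nfkbie (ENSMUSG00000023947, chr17:45555703-45563169, plus strand), the gene of IkappaB epsilon, was a low gene in WT. Its level was 2.57, 26.4, 6.85 and 5.62 CPM in WT and 46.6, 10.6, 34.0 and 55.1 CPM in Emb-kd. WT library 2 stood apart from the other WT libraries and Emb-kd library 2 from the other Emb-kd libraries, and it was through these that the groups overlapped. The log2 fold change was 1.80 (SE 0.80, 95% interval from 0.06 to 3.55) from 38 counts in WT and 241 in Emb-kd, and without WT library 2 it was 2.89.

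Tnfaip3 (ENSMUSG00000019850, chr10:19000910-19015657, minus strand) encodes a ubiquitin-editing enzyme that NF-kappaB induces and that damps signalling upstream of the inhibitors. It was the only tested member with a lower estimate in Emb-kd: 46.3, 23.0, 80.6 and 23.9 CPM in WT against 6.00, 11.1, 18.9 and 13.8 CPM in Emb-kd. All 4 Emb-kd libraries lay below all 4 WT libraries, the nearest pair being 18.9 and 23.0 CPM. The means were 43.5 ± 27.0 and 12.5 ± 5.38 CPM (SD, n = 4 each), and the log2 fold change was -1.80 (SE 0.64, 95% interval from -3.20 to -0.40). It stood at 2.17 to 7.30 times the receptor background in WT and at 0.985 to 2.12 times in Emb-kd, so in Emb-kd its level was close to that of genes not known to be used in colon. Both this gene and Nfkbia, with their kappaB matches printed above, are feedback genes of the same pathway, and their estimates had opposite signs under every normalization, filter, test and left-out library that was run.

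Of the 4 subunit genes, 2 had too few counts to be tested. Rela (ENSMUSG00000024927, chr19:5637483-5648130, plus strand), the gene of the subunit that most often carries the activating domain, was 1 of these, with 37 counts in WT and 44 in Emb-kd. Its level was 0, 8.05, 21.3 and 2.81 CPM in WT and 7.33, 5.83, 3.78 and 9.40 CPM in Emb-kd. The Emb-kd values lay inside the WT range, and with no count in WT library 1 and at most 4.53 times the receptor background anywhere, the depth could not show a difference.

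Rel (ENSMUSG00000020275, chr11:23736847-23770970, minus strand), the gene of c-Rel, a subunit best known from lymphocytes and myeloid cells, had 174, 31.0, 19.0 and 29.5 CPM in WT and 148, 103, 126 and 88.3 CPM in Emb-kd. WT library 1 was the highest of all 8, and the other WT libraries lay below every Emb-kd library. The log2 fold change was 0.88 (SE 0.79, 95% interval from -0.84 to 2.60) with all libraries and 2.20 without WT library 1. Relative to the receptor background it stood at 1.67 to 13.7 times in WT and 11.2 to 23.5 times in Emb-kd.

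Nfkb1 (ENSMUSG00000028163, chr3:135584655-135691547, minus strand) makes a precursor that is processed to a DNA-binding subunit without an activating domain. Its level was 253, 113, 44.9 and 112 CPM in WT and 59.3, 56.7, 334 and 195 CPM in Emb-kd. High and low libraries occurred in both genotypes, with means of 131 ± 87.7 and 161 ± 132 CPM (SD, n = 4 each). The log2 fold change of 0.30 (SE 0.82, 95% interval from -1.49 to 2.10) changed sign with the setting, to -0.16 when libraries were scaled by their totals alone and to -0.29 without Emb-kd library 3, and it was 0.90 without WT library 1.

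Nfkb2 (ENSMUSG00000025225, chr19:46304320-46312385, plus strand), the precursor gene of the noncanonical branch, did not pass the filter. It held 1.29, 3.45, 4.56 and 1.41 CPM in WT, from 11 counts in all, and 30.6, 9.54, 8.11 and 4.39 CPM in Emb-kd, from 86 counts. Of the Emb-kd libraries 3 lay above all WT libraries, and library 4 lay between WT libraries 2 and 3. Every WT library was below the receptor background, at 0.165 to 0.651 times, and the Emb-kd libraries lay at 0.905 to 7.94 times. With no filter on low counts its log2 fold change was 2.46 ± 1.12 (SE).

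**Figure D3:**
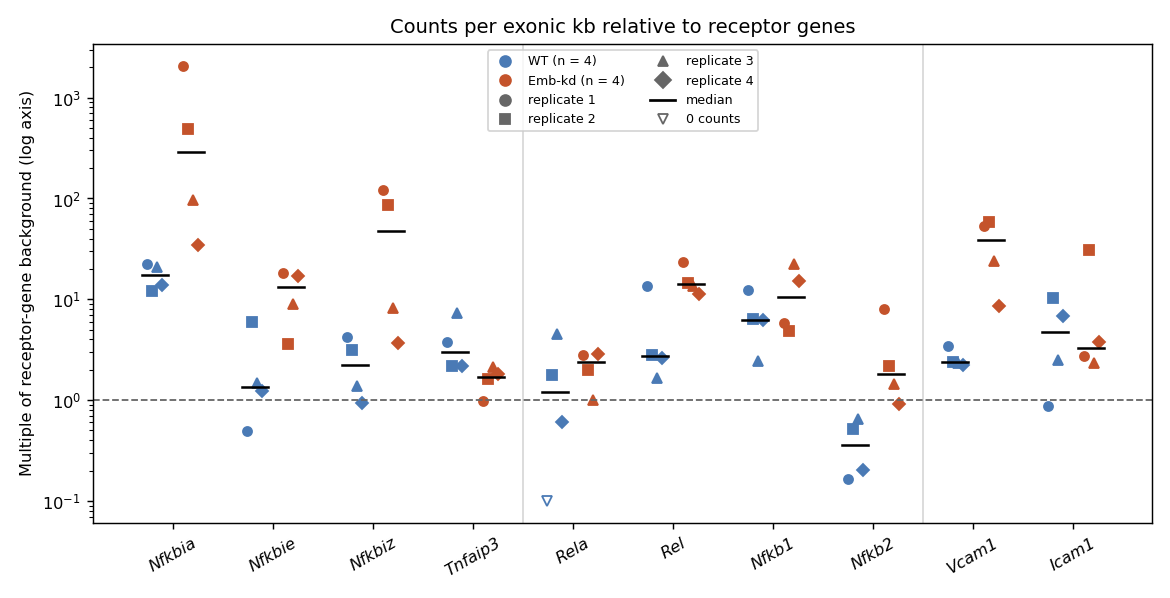
Counts per exonic kilobase of the 10 members divided by those of 1505 receptor genes in the same library (log axis), for 4 WT (blue) and 4 Emb-kd (red) libraries, with the median of each group as a bar; the dashed line is the receptor background. Nfkbia lies at 12.1 times or more in every library, and all WT libraries of Nfkb2 lie below the line.

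Vcam1 (ENSMUSG00000027962, chr3:116109949-116129688, minus strand) encodes an adhesion molecule that binds integrins of lymphocytes and monocytes, and NF-kappaB induces it on endothelium. It held 51.5, 31.0, 32 and 29.5 CPM in WT and 399.7, 502, 259 and 80.8 CPM in Emb-kd. Every Emb-kd library lay above every WT library, with 80.8 against 51.5 CPM as the nearest values. The means were 36.0 ± 10.4 and 310.4 ± 182 CPM (SD, n = 4 each) and the log2 fold change was 3.11 (SE 0.78, 95% interval from 1.4 to 4.81), from 130 and 2155 counts. It ranged from 2.79 to 3.45 when each library was left out in turn, the narrowest such range among the tested members. Markers of endothelium overlapped between genotypes: the 13 genes summed to 577 to 2152 CPM in WT and 302 to 1534 CPM in Emb-kd. Fibroblast markers, 9 genes, summed to 210.0 to 348 CPM in WT and 335 to 582 CPM in Emb-kd, which overlapped.

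Icam1 (ENSMUSG00000037405, chr9:21015985-21028817, plus strand), which encodes a ligand of leukocyte integrins and is another classical NF-kappaB target, did not share the pattern of Vcam1. Its level was 6.43, 66.7, 16.7 and 45 CPM in WT and 9.99, 128, 12.4 and 17.5 CPM in Emb-kd. Emb-kd library 2 was the highest of all, and the other Emb-kd libraries lay within the WT range. The log2 fold change was 0.32 (SE 0.96, 95% interval from -1.77 to 2.42), -1.33 without Emb-kd library 2 and 0.97 without WT library 2. Its sign also turned when libraries were scaled by their totals alone, to -0.38.

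**Figure D4:**
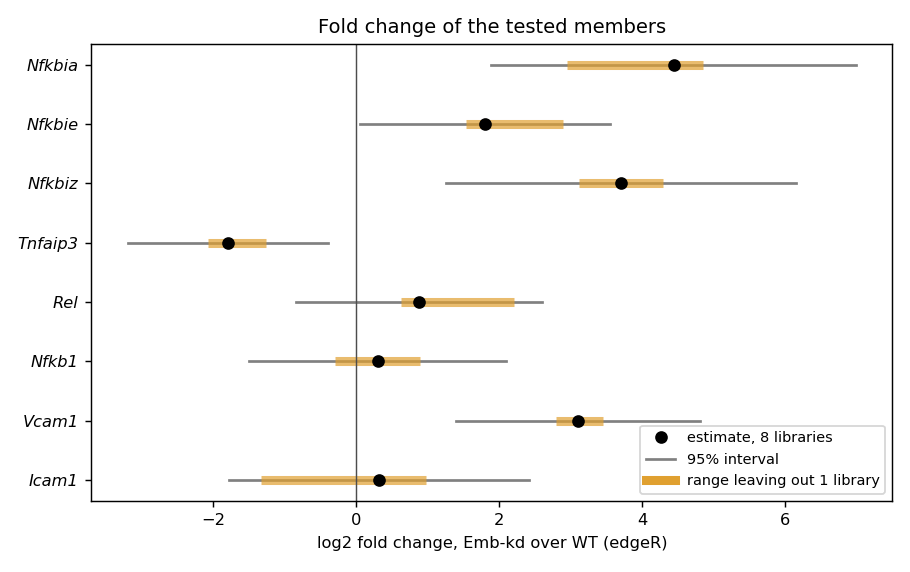
Log2 fold change (Emb-kd over WT, edgeR) of the 8 members that were tested: the point is the estimate from all 8 libraries, the grey line its 95% interval and the orange band the range when 1 library at a time was left out. The band of Vcam1 runs from 2.79 to 3.45, and those of Nfkb1 and Icam1 cross 0.

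Several library features moved with the genotype and so with these members. The share of ribosomal RNA, the level of C1qa and the summed level of 9 markers of smooth muscle and interstitial cells did not overlap between genotypes; the last was 121 to 163 CPM in WT and 71.9 to 117 in Emb-kd. The part of any of these features in the values of Nfkbia, Nfkbiz, Vcam1 or Tnfaip3 was not tested. Among the Emb-kd libraries 1 to 4 the 13 macrophage and dendritic markers other than C1qa summed to 1819, 1574, 1524 and 693 CPM, the same order as Nfkbia. That order rested on Cx3cr1, which held 318, 682, 7.02 and 99.0 CPM of these sums. Without Cx3cr1 too the order was another. In the WT libraries 1 to 4 the 13 markers summed to 1788, 1137, 1197 and 1775 CPM, not the order of Nfkbia there. C1qa itself held 5233, 2812, 3978 and 3724 CPM in the Emb-kd libraries. Markers of T, B and plasma cells (11 genes) summed to 49.4 to 139 CPM in WT, with Mzb1 at 0 counts in all WT libraries. In the Emb-kd libraries 1 to 4 they summed to 575.6, 116.6, 116.2 and 72.7 CPM, also the order of Nfkbia. Without Jchain, an antibody chain gene at 475 CPM in Emb-kd library 1, the sums were 46.4 to 139 CPM in WT. In the Emb-kd libraries 1 to 4 they were then 100.6, 110.8, 116.2 and 72.0 CPM, another order. Markers of granulocytes and mast cells (9 genes, with Fcer1a at 0 counts in all libraries) summed to 25.7 to 57.5 CPM and 38.8 to 213 CPM, the highest with 179 CPM from S100a9 in Emb-kd library 3. Depth also differed, and when all libraries were thinned to the same 608050 counts outside ribosomal RNA the log2 fold changes were 4.33 for Nfkbia, 3.68 for Nfkbiz, 2.98 for Vcam1 and -1.84 for Tnfaip3.

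Some members overlap other genes, and since the strand setting of the counting was not given in the sources used here, counts of such partners cannot be told apart. Vcam1 overlaps the antisense gene Gm43109, with 11 counts in WT and 136 in Emb-kd, few beside the 130 and 2155 of Vcam1. Icam1 overlaps the antisense gene Gm47079, with 37 counts in WT and 18 in Emb-kd. Nfkb2 overlaps Psd on the opposite strand, which had 44 and 143 counts, more than Nfkb2 itself in both genotypes. Nfkb1 overlaps Gm43430 on the same strand, with 9 and 63 counts.

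Compared with one another per exonic kilobase, the members were led by Nfkbia in each of the 8 libraries when lengths were the union of all exons. With the longest transcript as the length, the WT median of Nfkb1 was level with it, 27.1 against 26.8 CPM per kilobase. In WT its median was 26.3 CPM per kilobase, followed by Nfkb1 (9.33), Icam1 (7.08), Tnfaip3 (4.86), Rel (4.06), Vcam1 (3.55), Nfkbiz (3.35), Nfkbie (2.05), Rela (1.77) and Nfkb2 (0.53). In Emb-kd the order of medians was Nfkbia (293 CPM per kilobase), Nfkbiz (46.8), Vcam1 (37.2), Rel (15.4), Nfkbie (13.2), Nfkb1 (10.5), Icam1 (3.44), Rela (2.14), Nfkb2 (1.93) and Tnfaip3 (1.72). The ranges of neighbours in either order overlapped at every step. Tnfaip3 thus stood at the fourth place in WT and at the last in Emb-kd.

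Likeness of pattern was measured as the mean absolute difference of log2 CPM over the 8 libraries after each gene's own mean was subtracted, among 10182 genes with enough expression. The pattern nearest to Nfkbia was that of Ppard, a lipid-sensing nuclear receptor, at 0.27 log2 units, followed by Rae1 (0.39), Smap2 (0.57), Ninj1 (0.63) and the member Nfkbiz (0.64). Vcam1 came at rank 11 from Nfkbia (0.68) and Tnfaip3 at rank 9595. The patterns nearest to Vcam1 were those of Rock2 (0.35), Uimc1, Ski, Jund and Pdlim1 (0.41), and Nfkbia came at rank 101. These distances share the libraries and their depth, and they are a description.

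The other genes of the pathway were taken from a list of 107 genes in 7 roles, of which 73 passed the filter. The estimate was higher in Emb-kd for 47 of them and lower for 26, with a median log2 fold change of 0.59 against 0.04 over all genes tested. That median was -0.18 when libraries were scaled by their totals alone (-0.67 over all genes) and 0.36 without Emb-kd library 1. Of the 73, 15 reached the filter's level in all 4 Emb-kd libraries but not in all WT libraries, and 15 of these 15 had a higher estimate. Another 14 reached it in all 4 WT libraries but not in all Emb-kd libraries, and 4 of these 14 had a higher estimate. Of the 25 that reached it in all 8 libraries, 17 did. By edgeR's quasi-likelihood test 0 of the 73 passed the adjusted p, the lowest being 0.275, as did 0.0% of all 11353 genes. An unadjusted p under 0.05 was found for 11 higher and 7 lower, 24.7% of the 73; of all genes tested 8.64% had one on the higher and 4.64% on the lower side, 13.3% together. limma voom called 0 of the 73, and DESeq2 called 13, 9 higher and 4 lower, where it called 4.63% of all genes higher and 1.96% lower, 6.6% together.

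Upstream of the inhibitors the values were mixed. Among the ligands, Tnf, a cytokine that activates the pathway, held 1.29, 0, 12.2 and 15.5 CPM in WT and 79.3, 28.1, 190.2 and 27.6 CPM in Emb-kd. All Emb-kd libraries lay above all WT libraries, with a log2 fold change of 3.47 ± 1.11 (SE, edgeR adjusted p = 0.304). The ligands Il1b (0.63 ± 1.24) and Ltb (1.39 ± 0.70) overlapped, and 3 of the 4 tested ligands had a higher estimate. Of the 12 receptors tested 6 were higher and 6 lower, with a median of -0.21. Tnfrsf1a, the main receptor of Tnf, had 790.1 CPM in Emb-kd library 1 against at most 15.7 in the other Emb-kd libraries and at most 37.9 in WT. Tlr6, a Toll-like receptor for lipopeptides, lay at 23.6 to 93.1 CPM in WT and 10.3 to 18.8 CPM in Emb-kd, with no overlap (log2 fold change -1.64 ± 0.62, edgeR adjusted p = 0.320).

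Of 22 adaptors and ubiquitin enzymes tested, 16 had a higher and 6 a lower estimate, with a median of 0.65. Myd88, the adaptor of Toll-like and interleukin receptors, had 1.15 to 16 CPM in WT and 17.3 to 327 CPM in Emb-kd, a log2 fold change of 4.17 ± 1.19 (SE, edgeR adjusted p = 0.295). Traf1, an adaptor that NF-kappaB itself induces, lay on the opposite side with 22.8 to 1872 CPM in WT and 0 to 22.2 CPM in Emb-kd; its mean in WT came mostly from WT library 1, and the other 3 WT libraries held at most 66.7 CPM. The groups overlapped for neither of these genes. Among 6 kinases tested, Map3k14, the kinase of the noncanonical branch, had 34.8 ± 16.1 CPM in WT and 101 ± 40.9 in Emb-kd (SD, n = 4 each). Its estimate was 1.53 ± 0.63 on the log2 scale (SE, edgeR adjusted p = 0.334), with overlap. Chuk, which encodes a catalytic subunit of the kinase complex, had 19.3 ± 27.5 and 94.0 ± 91.6 CPM, with overlap.

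The role of other subunits and inhibitors, which also holds genes that act in inhibitor destruction such as Cul1, did not show the values of Nfkbia. Of 6 other subunits and inhibitors tested, 5 had a lower estimate in Emb-kd and 1 a higher one, with a median of -0.92. Nfkbid, a nuclear relative of Nfkbiz, held 23.2, 19.5, 21.3 and 36.5 CPM in WT and 8.66, 8.48, 12.4 and 13.2 CPM in Emb-kd, with no overlap (log2 fold change -1.22 ± 0.55, edgeR adjusted p = 0.371). Commd1, a factor that helps degrade Rela, was at 23.5 ± 11.3 and 44.1 ± 17.4 CPM (SD, n = 4 each), with overlap. Cul1 was at 45.8 ± 17.2 CPM in WT and 29.7 ± 11.4 in Emb-kd (SD, n = 4 each), with overlap. Its log2 fold change was -0.62 ± 0.56 (SE, edgeR adjusted p = 0.663).

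Of 18 target genes tested, 15 had a higher estimate in Emb-kd and 3 a lower one, with a median of 0.84. Ccl2, a chemokine that draws monocytes, held 54.0, 19.5, 0 and 0 CPM in WT and 377, 238, 61.6 and 52.6 CPM in Emb-kd, with Emb-kd library 4 just below WT library 1 (log2 fold change 3.31 ± 1.43, edgeR adjusted p = 0.355). Ptgs2, the inducible enzyme of prostaglandin synthesis, had 95.2 ± 30.4 CPM in WT and 278 ± 145 in Emb-kd (SD, n = 4 each), and Irf1 had 278 ± 93.3 and 374 ± 129 CPM. The groups overlapped for both.

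Of the integrin genes named here that bind Vcam1 or Icam1, Itgam and Itgb2 are genes of leukocytes more than of neurons. Itgam, a subunit of a macrophage and granulocyte integrin that binds Icam1, held 5061, 5765, 1405 and 2969.6 CPM in WT and 138, 261, 632 and 543 CPM in Emb-kd, with no overlap (log2 fold change -3.27 ± 0.75, edgeR adjusted p = 0.275). Its partner subunit Itgb2 had an estimate on the opposite side, with 2.28 to 19.5 CPM in WT and 7.57 to 339 CPM in Emb-kd (log2 fold change 3.82 ± 1.28, edgeR adjusted p = 0.304). Itgb1, a subunit of the integrin that binds Vcam1, had 35.7 ± 11.1 and 122 ± 94.3 CPM (SD, n = 4 each), with no overlap. Of the genes named here, DESeq2 called Tnf, Myd88, Map3k14, Ccl2, Itgb1 and Itgb2 higher and Tlr6 and Itgam lower. Tnf, Myd88, Ccl2 and Chuk reached the filter's level in 2 WT libraries and Itgb2 in 1, against all 4 Emb-kd libraries, so these genes were tested through the group where they were high. The same limit holds on the lower side for Traf1 and Nfkbid, which reached it in 4 WT and 2 Emb-kd libraries.

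**Figure D5:**
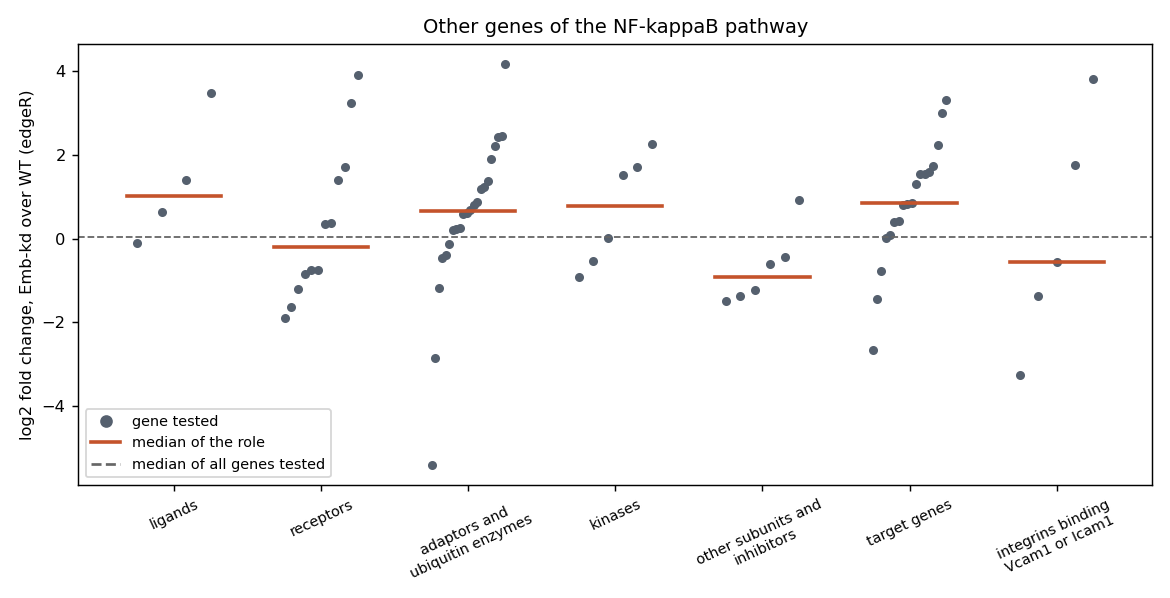
Log2 fold change (Emb-kd over WT, edgeR) of the 73 tested genes of the pathway list, by role; each point is 1 gene, the red bar the median of a role and the dashed line the median of all 11353 genes, 0.04. Medians run from -0.92 for the other subunits and inhibitors to 1.01 for the ligands, and 0 of the 73 genes passed the adjusted p.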

How the data were processed

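The table that the authors deposited holds raw whole-number counts of 55414 genes in 8 libraries, 4 WT and 4 Emb-kd. Per the submitters' processing notes, reads were handled with cutadapt and build mm10. Aligner, counter, strandedness and gene annotation were not given in the sources used here. Coordinates and exonic lengths came from GENCODE M21 (GRCm38, which mm10 names), where 52133 of 55414 identifiers were found. Promoters were RefSeq's (GRCm38.p6).

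From the counts, edgeR 4.0.16 in R 4.3.3 fitted quasi-likelihood models (robust, genotype as the term) to genes passing filterByExpr (minimum count 10, total 15) with TMM scaling, and adjusted p-values by Benjamini-Hochberg over 11353 genes (threshold 0.05). CPM are TMM-scaled over the counts of those genes; patterns used a prior count of 2. Standard errors came from the fold change and the F statistic. Alternatives were DESeq2 1.42.0, limma 3.58.1 voom, other scalings and filters, thinning, a replicate block and leaving out each library. Reads amplified without molecular identifiers do not count molecules independently.

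The members and lists were chosen with earlier results of these data known. Named are all members, the 3 genes of each pathway role with the highest mean CPM per exonic kilobase, the 5 patterns nearest to Nfkbia and Vcam1, and up to 2 genes of each marker list; some markers are not reported here. A search of member proteins was not run.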

Additional observations from a re-analysis of the deposited data

Results flagged for a closer look

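In a group of 4 libraries, 1 library was marked as apart where its gap to the nearest of the others exceeded, as a share of the group's range, Dixon's 95% critical value. Over 62 groups, which were the 10 members and the named genes of the pathway in each genotype, 12 were marked, 3 of them in members. The number cannot be set against chance. The pathway genes were named by their mean level, which 1 extreme library raises, and the critical value assumes normally distributed values. Rel in WT library 1 stood at 173.7 CPM, with the other WT libraries at 19.0 to 31.0 CPM. Vcam1 in WT library 1 stood at 51.5 CPM, with the others at 29.5 to 32 CPM. Icam1 in Emb-kd library 2 stood at 128 CPM, with the others at 9.99 to 17.5 CPM.

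In WT, Traf1 stood at 1872 CPM in library 1 and Tlr6 at 93.1 CPM in library 2. Chuk stood at 60.1 CPM in WT library 3. In Emb-kd, Tnfrsf1a stood at 790.1 CPM in library 1, and Il1rap, an accessory receptor chain, at 480.3 CPM in library 2. Itgb1 stood at 262 CPM in Emb-kd library 2 and Tbk1, a kinase related to the inhibitor kinases, at 34.0 CPM in Emb-kd library 3. Irak1, a kinase downstream of Myd88, was marked in both genotypes, with 75.9 CPM in WT library 1 and 787 CPM in Emb-kd library 3.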

How the results depend on the processing

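Nfkbia, Nfkbiz, Vcam1 and Tnfaip3 kept their sign and moved by less than the spread between libraries under all 19 alternatives. Nfkbie did so under the 18 in which it was tested; it was not tested where 10 counts in 6 of 8 libraries were required. The sign turned for Nfkb1 with library totals alone (-0.16) and without Emb-kd library 3 (-0.29). For Icam1 it turned with library totals alone (-0.38), limma voom (-0.031), the replicate block (-0.059) and without Emb-kd library 2 (-1.33). With each library left out in turn Nfkb1 ranged from -0.29 to 0.90 and Icam1 from -1.33 to 0.97, and Rel was 2.20 without WT library 1. The cause was not tested. With library totals alone the median of all genes moved to -0.67, and with scaling to the receptor genes to 0.64. The median of the other pathway genes moved with them, from 0.59 to -0.18 and 1.24; it was 0.36 under the stricter filter and 0.36 to 0.71 when 1 library was left out, lowest without Emb-kd library 1.

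The number of members whose groups did not overlap was 2, 4 with no filter on low counts, where all 10 were tested, and 2 to 4 with 1 library left out, at 4 without WT library 1, Emb-kd library 2 or Emb-kd library 4. Of all genes tested 8.28%, 3.55% with no filter and 10.8% to 13.7% with 1 library left out did not overlap. Vcam1 and Tnfaip3 were among these members under every alternative. edgeR called 0 genes in either direction. With library totals alone it called 1 higher and 1 lower, after thinning 2 higher, and with no filter 725 higher and 185 lower of 48530 genes, while DESeq2 called 526 higher and 223 lower. The calls among other pathway genes were 0, 9 with no filter and 13 by DESeq2. With the length of the longest transcript, 6 members changed rank in WT, where Nfkb1 took the first place from Nfkbia, and 5 in Emb-kd; with library totals alone 2 did in each.

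Replicate numbers are shared between the genotypes, but deviations of same-numbered libraries correlated at only 0.0113 to 0.0337 across genes, so the numbers were not taken to pair them, and not every library correlated best with its own number. A replicate block left 0 genes called and gave 3.24 for Nfkbia. Depth limits Rela and Nfkb2, with 37 and 11 counts in WT.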
